A study of Mus musculus with 6 samples.

Results

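Wnt proteins, their receptors and the proteins that modulate them were read from a table of counts per gene that compares cells carrying a control retrovirus with cells carrying a Prdm16 retrovirus. The genes were chosen by name, with earlier results of these data known. They were every Wnt ligand, Frizzled receptor, Sfrp, Dkk and R-spondin row, together with 19 named receptors, antagonists and intracellular components. The choice took 60 of the 24197 genes in the table, made up of 19 ligands, 10 Frizzled receptors, 4 coreceptors, 10 secreted antagonists, 9 genes of the R-spondin axis, 7 genes of beta-catenin and its TCF partners, and Porcn. The cells were stromal-vascular cells, the non-adipocyte fraction that holds the progenitors of fat, from inguinal adipose tissue of C57BL/6 mice, grown in standard growth medium. Both groups were transduced, 3 libraries with the control virus (puro) and 3 with the Prdm16 virus, which delivers a zinc-finger transcriptional regulator known from brown and beige fat. The sources used here do not give the promoter of the virus, the age and number of the mice or whether the replicates were separate cultures, so each p-value is set against variation among the sequenced libraries alone, and that variation may be technical.

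Wnt ligands are lipid-modified by the acyltransferase Porcn, carried to the cell surface by Wls and bound by a Frizzled receptor. Together with Lrp5 or Lrp6 the receptor stops the complex of Axin, Apc and Gsk3 from destroying beta-catenin, which then acts with TCF and LEF proteins on target genes, while other ligands act through Ror and Ryk receptors and planar polarity proteins without beta-catenin. R-spondins bind Lgr receptors and disarm Znrf3 and Rnf43, the ubiquitin ligases that remove Frizzled from the surface, whereas Sfrp, Wif and Dkk proteins bind ligands or coreceptors outside the cell. In fat, Wnt10b and beta-catenin are known as brakes on the conversion of preadipocytes to adipocytes.

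The libraries held 28169059 to 35798201 counts. Levels are given as CPM, counts per library total with TMM scaling, and the floor where a library had no count, set at 3 counts, lay between 0.0852 and 0.104 CPM. Prdm16 was read at 0.452, 0.631 and 0.745 CPM in the puro libraries and at 2796, 2505 and 2668 CPM in the Prdm16 libraries, as the labels say. Log2 fold changes are Prdm16 over puro ± SE, and a gene was called higher or lower at an adjusted p below 0.05 in edgeR's quasi-likelihood test over 13805 genes. The virus was accompanied by a broad response: 75.6% of the tested genes were called, 37.5% higher and 38.0% lower, and 21.8% were called with a change of at least 2-fold. The summed level of 7 stromal markers, the labelled cell type, was 7610 to 8264 CPM in puro and 3265 to 3552 CPM in Prdm16 libraries, and 5 of them fell and 1 rose. Most of the puro sum lay in the collagens Col3a1 and Col1a1, with mean levels that fell from 5007 to 1880 and from 1705 to 145 CPM. Pdgfrb, Thy1 and Dcn also fell, Ly6a rose from 376 to 988 CPM, and Pdgfra was not called (−0.08 ± 0.04, adjusted p = 0.116). Markers of lymphocytes and skeletal muscle were at or under 0.242 CPM in sum in every library. Fewer cells of a type and less RNA per cell cannot be told apart in such bulk samples.

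The genes moved in both directions: several Frizzled receptors rose, and R-spondins and Lgr receptors fell. Wnt5b became the leading ligand per kilobase of transcript, while Wnt5a stayed ahead of it in CPM. Of the 60 genes 40 were high enough to be tested, and of these 21 were higher (52.5%, against 37.5% of all tested genes), 13 lower (32.5%, against 38.0%) and 6 were not called. A change of at least 2-fold was found for 8 higher genes (background 9.69%) and 10 lower genes (background 12.1%). The median log2 fold change of the 40 was 0.30, against −0.01 over all tested genes, and the median size of change was 0.78 against 0.38. The groups did not overlap for 34 of the 40, where 77.6% of all tested genes did not. Wnt5b, Wnt7a, Wnt7b, Frzb and Lgr5 passed the low-count filter through 1 group only, so they had to differ. The other 35 included 29 called genes, 13 of them by at least 2-fold, beside 75.6% and 21.8% of all tested genes. That background still holds genes that passed through 1 group only.

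**Figure D1:**
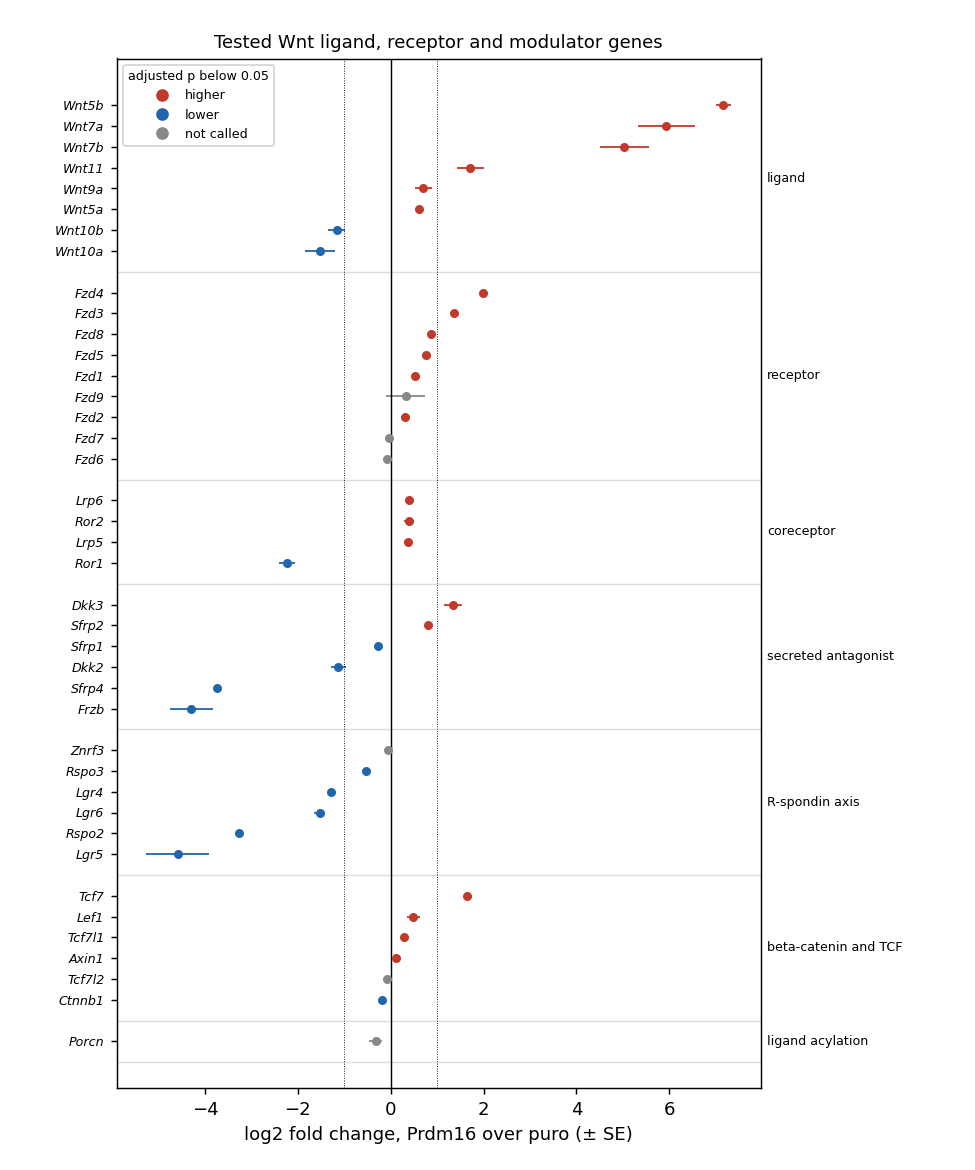
Log2 fold change (Prdm16 over puro, x axis) with its SE for the 40 tested genes, ordered by role; red, blue and grey mark genes called higher, called lower and not called, and dotted lines mark a 2-fold change. Ligands spread from −1.52 to 7.16, no Frizzled receptor was called lower, and no gene of the R-spondin axis was called higher.

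Among the ligands, Wnt5b rose most. Wnt5b, a ligand mostly assigned to signalling without beta-catenin, had 6, 5 and 2 counts under puro and 706, 528 and 653 under Prdm16. As CPM this was 0.0596 to 0.194 and 18.2 to 20.1, and Wnt5b rose by 7.16 ± 0.17 on the log2 scale (adjusted p = 2.23e-11). Every Prdm16 library lay far above every puro library, but Wnt5b passed the low-count filter through the Prdm16 group only and had to differ. Its close paralog Wnt5a was already present, with 431, 487 and 548 counts in puro and 831, 621 and 755 in Prdm16 libraries, and rose by 0.62 ± 0.07 on the log2 scale (adjusted p = 1.73e-05). Wnt5a lies on chromosome 14, whose tested genes had a median log2 fold change of 0.49. With the median of each chromosome removed, an alternative chosen after seeing the data, Wnt5a had 0.13 (adjusted p = 0.138) and was no longer called, while Wnt5b, on chromosome 6 with a median of 0.04, had 7.12.

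The ligands Wnt7a and Wnt7b, known from epithelia and the nervous system, were nearly silent in puro libraries. Wnt7a had 0, 1 and 0 counts there and 24, 32 and 26 in the Prdm16 libraries, a ratio of 83.6 with an exact 95% binomial counting interval of 14.6 to 3342. Wnt7b had 0, 0 and 3 counts and then 34, 36 and 38, a ratio of 36.7 (12.2 to 181). Both were called higher (adjusted p = 5.14e-06 and 5.61e-06), and for both the groups did not overlap. Both passed the low-count filter through the Prdm16 group only, so they had to differ. All puro counts of each lay in 1 library, so the fitted log2 fold change of Wnt7a went from 5.93 to 7.78 without puro replicate 2 and that of Wnt7b from 5.03 to 8.18 without puro replicate 3. Wnt11, a ligand of morphogenetic movements, rose from 6, 12 and 14 to 46, 28 and 30 counts (1.72 ± 0.29, adjusted p = 2.73e-04). Wnt9a, known from joint formation, rose from 1.13, 1.49 and 1.88 CPM to 2.73, 2.42 and 2.19 CPM (0.70 ± 0.19, adjusted p = 0.00520).

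Only Wnt10a and Wnt10b among the tested ligands fell. Wnt10b, the brake on adipogenesis named above, stood at 1.64, 1.81 and 1.94 CPM in puro and 0.795, 0.691 and 0.899 CPM in Prdm16 libraries (−1.17 ± 0.17, adjusted p = 9.87e-05). Wnt10a, its nearest paralog, went from 23, 18 and 24 counts to 7, 9 and 6 (−1.52 ± 0.32, adjusted p = 0.00112). No library of either gene crossed into the other group's range. Wnt10b lies on chromosome 15, whose median was −0.38, and had −0.79 with that median removed.

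Several ligand genes are direct neighbours on their chromosomes in the RefSeq order of protein-coding genes (GRCm38.p6). Wnt6, next to Wnt10a on chromosome 1, was too low to be tested but had 25 counts in all puro libraries and 5 in all Prdm16 libraries, where Wnt10a had 65 and 22. Wnt3a, next to Wnt9a, had no count in any library. Wnt1, next to Wnt10b, had 1 count in the 6 libraries, and the adjacent Wnt9b and Wnt3 had 1 count between them.

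Promoters were looked up in RefSeq (GRCm38.p6) to show the letters in front of 2 of the ligands that rose, and 40 of the 60 genes had an entry. The core recognised by TCF and LEF proteins, CTTTGAT on either strand, was searched in the 250 bases before each annotated start. It was found for 2 of the 40 genes (5.0%), Wnt5b and Wnt11, against 3.72% of 27025 genes in the whole promoter table, and in 2 of their 50 windows (4.0%), against 3.21% of 32851. The count table cannot tell which of the 3 annotated Wnt5b starts and 2 annotated Wnt11 starts was used, and each gene holds the motif before 1 of them only. For Wnt5b it lies before the most downstream start, at chr6:119449387-119449636 on the minus strand, with the first base of the motif 71 bases before the start, and for Wnt11 before the upstream start, at chr7:98834862-98835111 on the plus strand, 51 bases before the start. The windows of Wnt7a and Wnt9a, ligands that also rose, hold no copy and are not written out. For comparison, the window of the Frizzled receptor with the largest rise, Fzd4 (chr7:89404116-89404365, plus strand), and that of the receptor Lgr4, which fell (chr2:109917397-109917646, plus strand), hold no copy. Each is written 5′ to 3′ with the motif in capitals, and a match or its lack in these windows says nothing about binding.
Wnt5b: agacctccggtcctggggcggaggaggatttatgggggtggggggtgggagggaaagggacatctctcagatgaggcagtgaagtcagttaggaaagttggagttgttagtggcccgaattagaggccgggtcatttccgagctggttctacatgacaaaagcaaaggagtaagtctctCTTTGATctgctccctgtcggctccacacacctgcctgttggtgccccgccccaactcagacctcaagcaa
Wnt11: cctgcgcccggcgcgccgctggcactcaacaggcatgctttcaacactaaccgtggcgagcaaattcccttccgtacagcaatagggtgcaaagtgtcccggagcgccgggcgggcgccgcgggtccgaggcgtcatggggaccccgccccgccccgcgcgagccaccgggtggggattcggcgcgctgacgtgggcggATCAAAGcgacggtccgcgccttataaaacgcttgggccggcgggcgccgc
Fzd4: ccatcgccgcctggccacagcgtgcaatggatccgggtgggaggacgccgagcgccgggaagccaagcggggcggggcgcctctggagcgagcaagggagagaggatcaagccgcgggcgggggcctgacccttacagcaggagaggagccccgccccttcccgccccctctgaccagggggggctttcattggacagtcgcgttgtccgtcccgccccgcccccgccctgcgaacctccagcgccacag
Lgr4: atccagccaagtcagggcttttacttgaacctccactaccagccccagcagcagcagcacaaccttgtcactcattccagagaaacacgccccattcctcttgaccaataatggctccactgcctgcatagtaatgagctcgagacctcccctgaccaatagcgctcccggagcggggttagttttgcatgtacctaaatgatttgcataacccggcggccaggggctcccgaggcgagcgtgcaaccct

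To compare levels between genes, CPM was divided by the length of the longest protein-coding transcript in kilobases. On this scale the summed level of the 19 ligands was 3.94 ± 0.375 CPM per kb in puro and 13.7 ± 0.467 CPM per kb in Prdm16 libraries (SD, n = 3). Wnt5a held 52.7% to 54.1% of that sum in puro libraries and Wnt10b 16.4% to 17.6%. In Prdm16 libraries Wnt5b alone held 57.9% to 60.2%, Wnt5a 23.0% to 23.7% and Wnt10b 1.92% to 2.42%. On this scale the leading ligand thus differed between the groups in all 6 libraries, while Wnt5a stayed among the leading 2. In CPM Wnt5a stayed above Wnt5b in every library, with means of 22.6 and 19.3 CPM in the Prdm16 group. Wnt5b led only after the division by transcript length (2371 bases, against 7010 for Wnt5a).

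**Figure D2:**
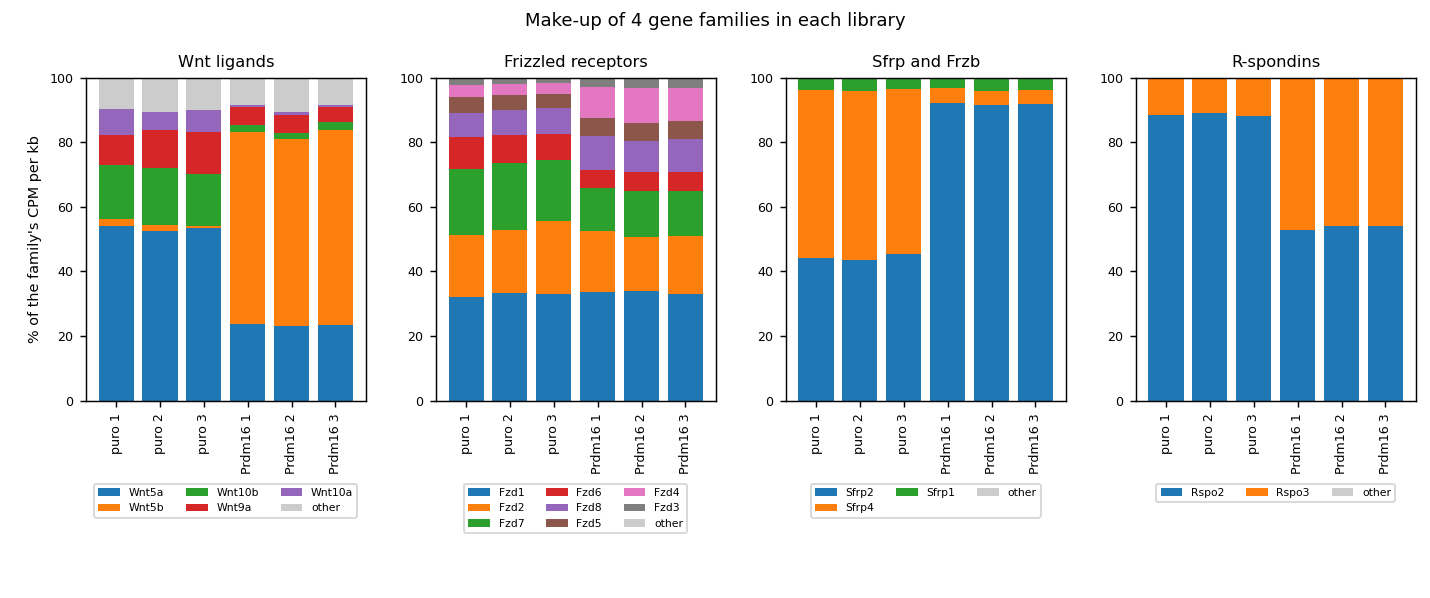
Stacked bars give each gene's share (% of the family's summed CPM per kb) in each of the 6 libraries, for Wnt ligands, Frizzled receptors, Sfrp genes with Frzb, and R-spondins. Wnt5b (57.9% to 60.2%) and Sfrp2 (91.5% to 92.1%) dominate their families in the Prdm16 libraries, and Rspo2 drops from 88.3% to 89.0% of R-spondins to 52.9% to 54.2%.

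Markers of other cells moved with the ligands. Of 8 markers of mammary epithelium, which lies within inguinal fat, 4 were tested and all 4 (Epcam, Cdh1, Krt18 and Esrp1) were called higher. Their list summed to 0.287 to 0.358 CPM in puro and 26.7 to 28.2 CPM in Prdm16 libraries. The keratins of the list differed: Krt18 went from 7 counts over the puro libraries to 1304 over the Prdm16 libraries, while Krt8 had 4 counts over each group, Krt5 3 over each group, and Krt14 1 and 2. Elf5 had 2 and 0 counts, and Esrp1 0 and 567. The 4 mesothelial markers summed to 6.39 to 6.90 and 96.4 to 102 CPM, and 2 of them (Msln and Krt19) were tested and higher. The 4 adipocyte markers summed to 0.290 to 0.596 and 5.68 to 6.41 CPM. Adipoq and Cidec were tested and higher (3.05 ± 0.21 and 5.20 ± 0.26), Plin1 had 10 and 9 counts over the groups, and Lep 0 and 5. Of 6 macrophage markers, which summed to 4.999 to 6.28 and 4.73 to 4.94 CPM, Lyz2 fell from 146 to 3 counts, Cd68 was tested and not called, and Emr1 had no count. The part of these genes in the ligand results, Wnt10b included, was not tested.

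Frizzled receptors rose in 6 of 9 tested genes and fell in none, beside a background of 37.5% higher and 38.0% lower among all tested genes. Fzd4, the receptor of norrin and of several Wnts, went from 14.3, 13.5 and 14.4 CPM to 53.8, 58.0 and 55.1 CPM (1.99 ± 0.05, adjusted p = 4.77e-11). Fzd3, known from axon guidance and planar polarity, went from 13.1, 12.1 and 10.2 CPM to 30.0, 31.0 and 30.7 CPM (1.37 ± 0.08, adjusted p = 3.21e-08). For both genes the lowest Prdm16 library was above the highest puro library by more than 2-fold. Fzd3 lies on chromosome 14, whose median log2 fold change was 0.49. Beside the Fzd4 values stand those of 6 endothelial markers, which summed to 1.67 to 1.83 CPM in puro and 9.06 to 11.9 CPM in Prdm16 libraries, and the difference in the sum lay in Tek. Tek rose from a mean of 1.19 to 10.2 CPM, Kdr was tested and not called (0.393 and 0.365 CPM), Pecam1 had 16 and 10 counts over the groups, Tie1 1 and 4, Emcn 1 and 1, and Cdh5 none. The part of Tek in the Fzd4 result was not tested. Smaller rises were those of Fzd8 (0.87 ± 0.07), Fzd5 (0.75 ± 0.06), Fzd1 (0.52 ± 0.06) and Fzd2 (0.31 ± 0.10). Fzd8 lies on chromosome 18, whose median was −0.41. Fzd2 was the only one of the 6 whose groups overlapped, at 38.4, 39.8 and 51.3 CPM in puro and 58.3, 49.3 and 52.7 CPM in Prdm16 libraries (adjusted p = 0.0148). It no longer passed without puro replicate 1 (0.23, adjusted p = 0.0592), puro replicate 2 (0.25, 0.0632) or Prdm16 replicate 1 (0.25, 0.0525).

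Fzd7, often tied to stem and progenitor cells, did not pass the test, at 51.2, 52.1 and 53.6 CPM in puro and 50.0, 50.6 and 51.3 CPM in Prdm16 libraries (−0.05 ± 0.04, adjusted p = 0.279). Fzd6 had −0.09 ± 0.06 (adjusted p = 0.199). It lies on chromosome 15, and with the chromosome medians removed it had 0.29 (adjusted p = 9.66e-04). Fzd9 was close to the filter, with 4 to 13 counts in each library, and Fzd10 had 2 counts in all. Per kilobase the summed Frizzled level was 57.7 ± 4.13 in puro and 81.4 ± 2.03 in Prdm16 libraries (SD, n = 3). Fzd1 held 32.2% to 34.0% of it in all 6 libraries, and the share of Fzd4 was 3.42% to 3.87% in puro and 9.57% to 10.8% in Prdm16 libraries.

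Of the coreceptors, Lrp6 and Lrp5, the partners of Frizzled in beta-catenin signalling, rose by small amounts. Lrp6 went from 327, 312 and 297 CPM to 397, 431 and 400 CPM (0.39 ± 0.04, adjusted p = 1.16e-05). Lrp5 had 153, 156 and 175 CPM and then 225, 205 and 199 CPM (0.38 ± 0.06, adjusted p = 1.38e-04). Lrp5 lies on chromosome 19, where the median was 0.39, and with the chromosome medians removed its value was −0.01 (adjusted p = 0.891), which ends the call. The receptor tyrosine kinases Ror1 and Ror2, which bind Wnt5a, went opposite ways. Ror1 fell from 3.42, 2.98 and 2.74 CPM to 0.682, 0.518 and 0.719 CPM (−2.23 ± 0.18, adjusted p = 5.48e-07). Ror2 rose from 19.5, 19.3 and 25.7 CPM to 30.4, 26.4 and 27.7 CPM (0.39 ± 0.10, adjusted p = 0.00536), with puro replicate 3 close to the lowest Prdm16 library. Per kilobase Ror2 was above Ror1 in both groups, at 5.40 against 0.529 in puro and 7.06 against 0.111 in Prdm16 libraries.

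**Figure D3:**
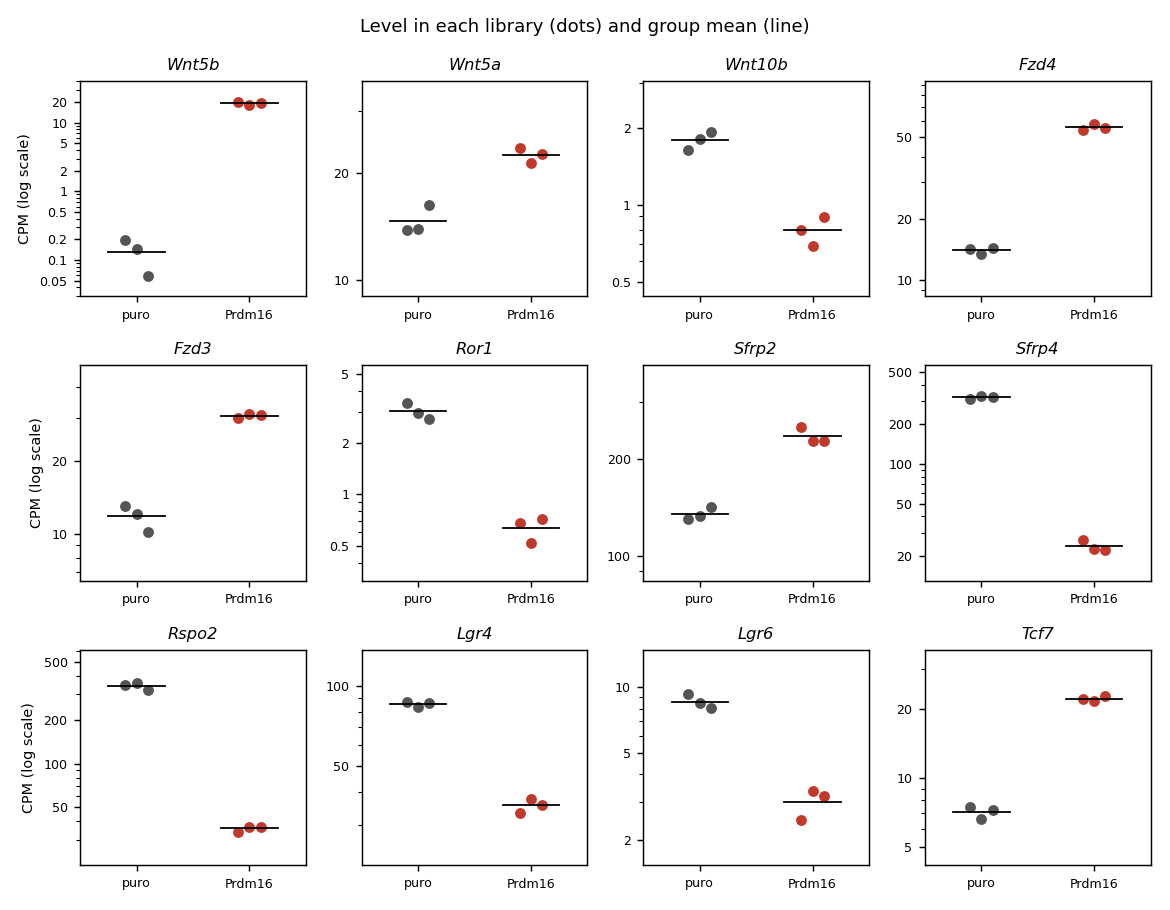
CPM on log axes for 12 genes in the 3 puro (grey) and 3 Prdm16 (red) libraries, with a line at each group mean. The 12 genes are a selection from the 40 tested. The groups do not overlap in any panel, which also holds for 77.6% of all tested genes. Wnt5b lies between 18.2 and 20.1 CPM and Sfrp4 between 22.3 and 26.6 CPM in the Prdm16 libraries.

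Secreted antagonists changed in both directions, and Sfrp4 and Sfrp2 exchanged places. Sfrp4, a secreted Frizzled-related protein made by fat, was at 310, 326 and 323 CPM in puro and at 26.6, 22.6 and 22.3 CPM in Prdm16 libraries (−3.74 ± 0.06, adjusted p = 2.02e-12). Sfrp2, a relative made by fibroblasts and progenitors, went the other way, from 130, 133 and 142 CPM to 251, 226 and 227 CPM (0.80 ± 0.05, adjusted p = 5.54e-08). Neither gene had a library within the other group's range. Per kilobase Sfrp4 held 51.1% to 52.6% of the 4 detected family members (Sfrp1, Sfrp2, Sfrp4 and Frzb) under puro and 4.46% to 4.83% under Prdm16, and Sfrp2 held 43.4% to 45.3% and 91.5% to 92.1%. The summed level of the family differed less than its make-up, at 152 ± 4.55 and 128 ± 7.10 CPM per kb (SD, n = 3).

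Sfrp1 fell slightly, from 23.7, 25.9 and 23.5 CPM to 18.4, 21.7 and 20.6 CPM (−0.27 ± 0.07, adjusted p = 0.00464). Frzb, the family member nearest to Sfrp4 in domain make-up, had 28, 28 and 31 counts in puro and 0, 2 and 2 in Prdm16 libraries (−4.29 ± 0.46, adjusted p = 6.21e-06). Its value was −3.68 without Prdm16 replicate 1, which held no count. Frzb passed the low-count filter through the puro group only, so it had to differ. Among the Dickkopf genes, Dkk2, an antagonist of Lrp5 and Lrp6, fell from 112, 150 and 120 counts to 67, 58 and 46 (−1.13 ± 0.16, adjusted p = 5.80e-05). With the chromosome medians removed Dkk2 had −0.93, a fall of less than 2-fold. Dkk3, a divergent member that is not a classical Lrp antagonist, rose from 32, 24 and 26 counts to 73, 53 and 79 (1.34 ± 0.19, adjusted p = 7.11e-05). Dkk1 had 1 count in all, and Dkk4 and Sfrp5 had none in any library. Wif1, which binds ligands directly, was not tested, with 2 counts in all puro and 11 in all Prdm16 libraries (ratio 5.61, counting interval 1.22 to 52.1).

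The R-spondin axis was lower in 5 of 6 tested genes and higher in none, against 38.0% lower among all tested genes. Lgr5, among the 5, passed the low-count filter through the puro group only, so it had to differ. Of the untested genes of the axis, Rnf43 and Rspo1 were called higher without that filter, and Rspo4 was not called. Rspo2, an R-spondin known from limb, lung and muscle development, fell from 346, 362 and 320 CPM to 33.9, 36.7 and 36.8 CPM (−3.26 ± 0.06, adjusted p = 2.12e-12). With the median of chromosome 15 removed it had −2.88. Rspo3, known from vessels and stroma, fell less, from 41.6, 41.4 and 39.2 CPM to 27.9, 28.6 and 28.5 CPM (−0.52 ± 0.05, adjusted p = 1.12e-06). The 2 genes thus came close to each other: per kilobase Rspo2 was at 103 and Rspo3 at 13.2 in puro, and at 10.7 and 9.19 in Prdm16 libraries. The R-spondins summed to 116 ± 6.78 CPM per kb in puro and 20.0 ± 0.626 in Prdm16 libraries (SD, n = 3).

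The 3 receptors of the R-spondins fell together. Lgr4, the widely expressed one, went from 87.5, 83.5 and 86.6 CPM to 33.3, 37.4 and 35.7 CPM (−1.28 ± 0.05, adjusted p = 7.29e-10). Lgr6, known from skin and smooth muscle, went from 9.29, 8.46 and 8.05 CPM to 2.47, 3.35 and 3.18 CPM (−1.53 ± 0.12, adjusted p = 4.95e-07). Lgr5, the marker of intestinal stem cells, had 13, 26 and 19 counts in puro and 0, 2 and 0 in Prdm16 libraries, a puro level 28.4 times as high, with 7.53 to 240 as counting interval (adjusted p = 8.45e-05). Its fitted log2 fold change was −4.59 and became −7.30 without Prdm16 replicate 2, which held both counts. All puro libraries of these receptors were above all Prdm16 libraries, though Lgr5 passed the low-count filter through the puro group only and had to differ. Lgr4 made up 92.1% to 94.7% of the summed Lgr level per kilobase in every library, so the sum followed it, at 18.4 ± 0.423 and 7.46 ± 0.481 (SD, n = 3).

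Znrf3, the ubiquitin ligase on which R-spondins act, was not called, at 23.2, 24.3 and 22.1 CPM in puro and 22.7, 22.3 and 21.9 CPM in Prdm16 libraries (−0.06 ± 0.06, adjusted p = 0.346). Its partner Rnf43 was too low to be tested, with 11 counts in all puro libraries and 35 in all Prdm16 libraries. Beside the R-spondin and Sfrp4 values stand those of 4 pericyte markers, which summed to 27.9 to 36.4 CPM in puro and 1.92 to 2.33 CPM in Prdm16 libraries. Nearly all of the sum lay in Cspg4, which was called lower, with means of 31.3 and 2.01 CPM. Rgs5, also called lower, had 43 and 5 counts over the groups, Abcc9 had 4 and 2, and Kcnj8 had 0 in every library. The part of these markers in the R-spondin and Sfrp4 results was not tested.

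Among the tested genes of beta-catenin and its TCF partners the changes were smaller, apart from Tcf7. Ctnnb1, which encodes beta-catenin, had 857, 846 and 810 CPM in puro and 722, 744 and 727 CPM in Prdm16 libraries (−0.20 ± 0.03, adjusted p = 3.32e-04). Tcf7, which encodes TCF1, rose from 7.48, 6.65 and 7.27 CPM to 22.2, 21.7 and 22.9 CPM (1.64 ± 0.07, adjusted p = 2.02e-09). Lef1 rose by 0.49 ± 0.14 from 1.61, 1.72 and 1.82 CPM to 2.13, 2.49 and 2.64 CPM, and Tcf7l1, mostly a repressor, by 0.28 ± 0.06. Tcf7l2 was not called (−0.08 ± 0.06, adjusted p = 0.234), but lies on chromosome 19 and had −0.46 (adjusted p = 2.02e-05) with the chromosome medians removed. Per kilobase Tcf7l1 led the 4 factors in all libraries, with 47.1% to 56.8% of their sum, while the share of Tcf7 was 12.2% to 13.6% in puro and 27.7% to 30.3% in Prdm16 libraries.

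Axin1, the scaffold of the destruction complex, was called higher by a small amount (0.11 ± 0.04, adjusted p = 0.0210). It no longer passed without puro replicate 1 (adjusted p = 0.0566), puro replicate 2 (0.0994) or Prdm16 replicate 3 (0.0520), and with the chromosome medians removed (0.129). Axin2, a feedback inhibitor widely used as a readout of beta-catenin activity, was near the limit of detection, with 5, 3 and 2 counts in puro and 11, 7 and 7 in Prdm16 libraries, and was not tested. Porcn did not pass, at 3.61, 3.30 and 3.81 CPM in puro and 3.27, 2.28 and 2.94 CPM in Prdm16 libraries (−0.33 ± 0.14, adjusted p = 0.0580), and passed without Prdm16 replicate 1 (−0.44, adjusted p = 0.0249).

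The 20 untested genes were 11 ligands, Fzd10, 4 antagonists, Rspo1, Rspo4, Rnf43 and Axin2. Besides those already given, Wnt4 had 26 counts in all puro and 49 in all Prdm16 libraries, Wnt2b 13 and 30, and Wnt16 1 and 29 (ratio 29.6, counting interval 4.90 to 1208). Wnt2 had 10 and 3 counts, and Wnt8b 6 and 1. Rspo1 had 0 and 7 counts, at least 2.38-fold higher when the puro group as a whole is set at the floor of 3 counts. Rspo4, Wnt8a and Wnt3 had at most 3 counts over either group. Without the low-count filter, Wnt16, Rnf43, Rspo1, Wif1, Axin2 and Wnt2b passed the test with a rise of at least 2-fold, which brought the count of such genes from 8 to 14, and Wnt4 and Wnt6 passed as well. Intervals and floors cover counting error only.

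Other genes of the pathway, in a list of 50 partners outside the 60, divided into 17 higher, 20 lower and 7 not called among 44 tested (38.6% higher and 45.5% lower, beside a background of 37.5% and 38.0%; median log2 fold change −0.04, against −0.01 over all tested genes). Wls, the carrier of Wnt proteins, fell from 822, 809 and 754 CPM to 408, 415 and 405 CPM (−0.96 ± 0.04, adjusted p = 1.72e-09). Of 8 tested inhibitors and feedback genes 6 fell and 1 rose, beside the same background. Notum, which removes the lipid from Wnt proteins, was listed with Wls under secretion and is not among the 8. It rose (3.26 ± 0.27). Nkd1, which binds Dishevelled and is induced by beta-catenin, fell from 174, 202 and 205 counts to 13, 11 and 14 (−3.89 ± 0.15, adjusted p = 1.12e-09). Dact2 (−3.82 ± 0.23), another Dishevelled binder, and Trabd2b (−1.41 ± 0.07), a membrane protease that inactivates ligands, were picked after their values were seen. The 10 genes of the destruction complex and its regulators split into 4 higher, 4 lower and 2 not called. This was 40% each way, close to the background of 37.5% and 38.0%. The median size of change of the 10 was 0.16, against 0.38 over all tested genes. The largest fall among them, picked after its values were seen, was that of Apc2 (−1.58 ± 0.14, adjusted p = 1.07e-06), from 1668 to 549 counts over the groups. The largest rise was that of Tnks2 (0.60 ± 0.04).

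Among the groups of partners, planar polarity and other genes of signalling without beta-catenin held the widest range. The cadherins Celsr2 and Celsr1 rose by 5.56 ± 0.13 and 5.39 ± 0.18 on the log2 scale, Celsr2 from 0.387, 0.459 and 0.685 CPM to 25.6, 24.1 and 23.1 CPM. The GTPase Rhou, known to be induced by Wnt, rose by 3.04 ± 0.06. Prickle2, a cytoplasmic polarity protein, and Daam2, a formin that binds Dishevelled, fell, with −1.69 ± 0.07 and −2.34 ± 0.08. Of the receptors, picked after their values were seen, Ptk7 rose by 1.19 ± 0.05 and Ryk fell, with −0.55 ± 0.04. In all, 5 of 11 tested genes of this group rose and 5 fell (45.5% each way), close to the background of 37.5% and 38.0%. Tle1, a corepressor that binds TCF proteins, rose by 1.56 ± 0.05, and Dvl1, a Dishevelled also picked after its values were seen, by 0.88 ± 0.07.

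**Figure D4:**
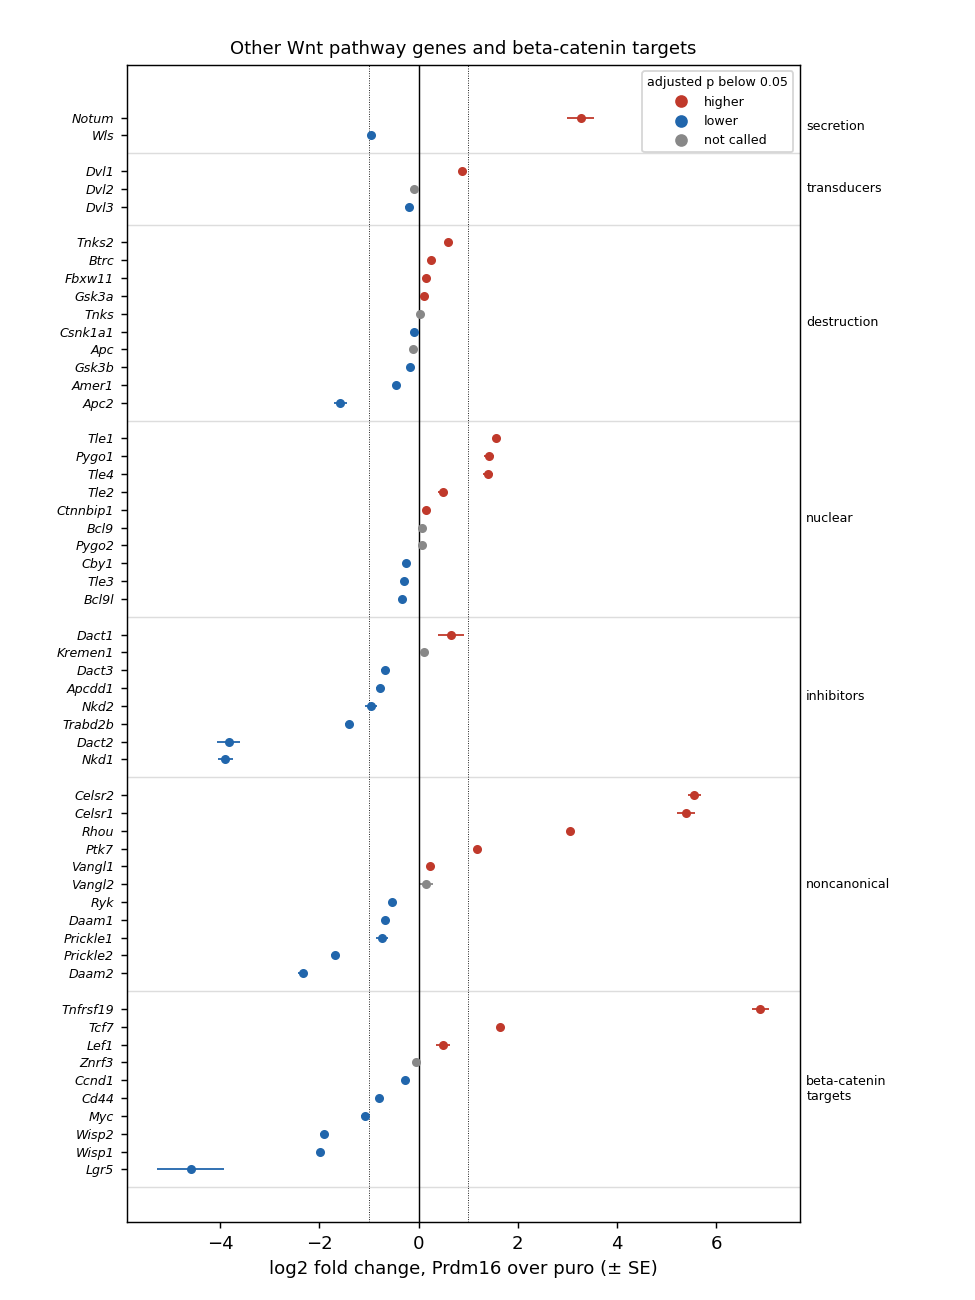
Log2 fold change (Prdm16 over puro, x axis) with its SE for the tested pathway partners, by role, and the tested beta-catenin targets; red, blue and grey mark genes called higher, called lower and not called. Nkd1, Notum and Apcdd1 belong to both lists and are drawn once, among the partners. Celsr1, Celsr2 and Tnfrsf19 lie beyond 5 on the log2 scale, and 6 of 8 tested inhibitors lie below 0 in blue. Notum, which rose, is drawn under secretion and is not among the 8.

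Of 13 tested genes known as direct targets of beta-catenin in other tissues, 8 were lower, 4 higher and 1 not called, with a median log2 fold change of −0.78. Without the 4 that are among the 60 genes (Lef1, Tcf7, Lgr5 and Znrf3), 7 of 9 were lower and 2 higher, beside backgrounds of 38.0% and 37.5%. The matricellular proteins Wisp1 (105, 106 and 98.3 CPM in puro, 23.9, 27.4 and 27.2 CPM in Prdm16 libraries) and Wisp2 (50.1 to 53.0, then 11.8 to 14.9 CPM) fell, with −1.98 ± 0.06 and −1.91 ± 0.07. The hyaluronan receptor Cd44 (−0.79 ± 0.04) and the growth regulator Myc (−1.08 ± 0.08, picked after its values were seen) also fell. Those that rose were Tnfrsf19, a TNF receptor family member, from 7, 6 and 20 counts to 1348, 1215 and 1306 (6.89 ± 0.17, adjusted p = 3.23e-11), and Notum, a secreted enzyme that removes the lipid from Wnt proteins, from 7, 4 and 5 counts to 52, 43 and 59 (3.26 ± 0.27, adjusted p = 7.24e-07). Of the untested targets, Axin2 had 10 and 25 counts over the groups, Rnf43 11 and 35, and Ascl2 0 and 10. Cdx1 had 31 and 1, T had 0 and 2, and Sp5 and Mmp7 had no count in any library. Without the low-count filter 7 targets were called higher and 9 lower. Lgr5, among the lower, passed that filter through the puro group only. Many of these genes also answer to other pathways.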

How the data were processed

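Polyadenylated RNA was sequenced in 6 libraries, and the authors deposited whole-number counts per gene symbol with no normalization. The submitters' processing notes name STAR, featureCounts, Subread and the build mm9, with no role or order; the sources used here do not give the strand setting or the treatment of reads shared by paralogs, so levels of close paralogs and overlapping genes are uncertain to that extent. The deposited counts went into edgeR 4.0.16 (R 4.3.3), where filterByExpr kept 13805 genes. After TMM scaling, Prdm16 was tested against puro with the quasi-likelihood method, two-sided, and p-values were adjusted over all kept genes by Benjamini-Hochberg. The script was tested on simulated data. Library depth limits genes of a few counts, where a ratio with an exact 95% binomial interval or a bound is given.

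The members, gene lists and alternatives were chosen with earlier results of these data known. Counts per library are given for members with a called 2-fold change and at least 1 CPM in the higher group, the 4 smallest p in each direction are named from the other lists, and further genes are marked. Transcript lengths (GENCODE M21) and promoters (RefSeq) are of GRCm38, matched by symbol, since the files' build was not at hand. Identity between paralogous proteins, planned at the start, was not analysed here.

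Replicate pairs of a group gave chi-square values per gene of 2.08 to 8.85, where sampling noise alone gives 1, so each library was kept. Alternatives were RLE and upper-quartile scaling, 2 other low-count filters, DESeq2 1.42.0, limma-voom (limma 3.58.1), a replicate block, Prdm16 left out of the counts, each library left out in turn, and, chosen after seeing the data, removal of each chromosome's median log2 fold change.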

Additional observations from a re-analysis of the deposited data

How the results depend on the processing

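Over 15 alternatives the 60 genes gave 18 to 28 higher and 10 to 14 lower calls, against 21 and 13. The count of genes higher by at least 2-fold, 8, became 14 without a low-count filter and 5 with at least 1 CPM in 3 libraries, and the beta-catenin targets called higher, 4, became 7 without the filter; more or fewer genes were tested there. Of 593 refitted values of the 40 tested members 578 kept their direction and side of the threshold, 8 lost the call, 4 gained it and 3 changed sign. These were Fzd6 (0.29) and Lrp5 (−0.0097) with chromosome medians removed and Fzd9, which ran from −0.057 without puro replicate 2 to 0.72 without puro replicate 3. Porcn also passed with upper-quartile scaling (adjusted p = 0.0467). With the replicate number as a block, 21 members were higher and 14 lower, and Porcn was the one member whose call changed (adjusted p = 0.0444). The same-numbered libraries had correlations of −0.16, 0.10 and −0.07 in their deviations from the group means. Those of differently numbered libraries ran from −0.19 to 0.25. With 3 libraries in each group these values cannot settle whether the numbers pair the samples. Wnt7a had a log2 fold change of 5.27 with limma-voom, against 5.93. Depth limits Wnt7a, Wnt7b, Frzb, Lgr5 and the untested genes, whose ratios rest on a few counts in 1 group.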
